A study of Mus musculus with 8 samples.

Results

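The complement and acute phase genes described here are 9 genes named by symbol: Hp, C3, C4b, Cfb, Cfi, Saa1, Saa3, Serping1 and Pzp. They were found on the arrays through the accession that each probe carries, and 8 of the 9 had a probe well above background in at least 4 of the 8 samples. These 8 were among 22122 items tested, an item being a gene, or an accession without a gene symbol, read on its brightest probe. Saa3 was well above background in 1 of 8 samples and was not tested.

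RNA from frozen cross sections of whole mouse kidney was measured on 4 two-colour Agilent arrays, each holding 1 mutant and 1 wild-type mouse. The question was which transcripts differ when Pus1 is disrupted; Pus1 encodes pseudouridine synthase 1, which turns uridine into pseudouridine in tRNA and other RNAs. The mutant group was 4 mice homozygous for a Pus1 mutation, called a knockout in the series title, and the control group was 4 wild-type mice. All 8 mice were 14 to 16 weeks old and of the C57BL/6J strain after 5 generations of backcrossing, and the labels name no treatment. In both groups replicates 1 and 2 were female and replicates 3 and 4 were male. Replicates 1 to 4 lay on arrays 1 to 4, with the mutant sample in the red dye, Cy5, on arrays 1 and 3 and in the green dye, Cy3, on arrays 2 and 4. Sex therefore follows the position on the slide and the 2 cannot be told apart.

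Complement is a set of plasma proteins that cut and activate each other on foreign or damaged surfaces, where the central component C3 is split by convertases built from C4b and C2 or from C3 and factor B. Acute phase proteins are plasma proteins, made mostly by hepatocytes, whose level shifts in inflammation, mainly under interleukin-6 and interleukin-1. The kidney also transcribes several complement genes, above all in tubule cells, and fat cells are a known source of haptoglobin, C3 and factor D.

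Each sample had 26919 to 30529 of 55681 probes well above background. The targeted gene checked the labels: Pus1 was lower in the mutants by a log2 ratio of -2.96 ± 0.07 (SE, n = 4 arrays, limma adjusted p = 0.00041). Markers of the kidney tubule and the podocyte were present, with 8 of 8 measured, and their summed intensity was 388890 to 559570 in the wild-type samples and 416411 to 622251 in the mutant samples. Markers of other tissues were present as well and differed between single mice. Summed intensity of 11 perirenal fat markers was 90544 and 169694 in the wild-type females, 27081 and 66343 in the mutant females, 25200 and 76892 in the wild-type males and 89744 and 120445 in the mutant males. One wild-type female (replicate 2) stood apart in some hepatocyte transcripts, with a normalized log2 intensity of Alb, serum albumin, of 12.20 against 7.72 to 9.37 in the other 7 samples, and of Ahsg, fetuin-A, of 12.24 against 6.65 to 8.95. Apoa2 was also highest in that mouse, at 13.69, whereas Ttr, Serpina1c and Cyp2e1 of the same list were within the range of the other samples. Among the females alone, Serpina1c was highest in that mouse, at 13.8 against 11.9 to 12.6, while Ttr and Cyp2e1 were not. The fat marker Lep was not well above background in any sample, and the hepatocyte marker Cps1 was not either. The arrays read bulk tissue, in which fewer cells of a type and less RNA per cell cannot be told apart.

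Promoter sequence was at hand for 4 of the 9 genes, C3, Saa1, Saa3 and Pzp, as the 250 bases before a transcript start in RefSeq on GRCm38.p6. Promoters of Hp, C4b, Cfb, Cfi and Serping1 were not used here. Sequences of 3 are shown because C3 and Pzp differed with sex and Saa1 varied little. Capitals mark the site named after each sequence, and all 3 are on the minus strand, printed in the direction of transcription.
C3 promoter, chr17:57228137-57228386: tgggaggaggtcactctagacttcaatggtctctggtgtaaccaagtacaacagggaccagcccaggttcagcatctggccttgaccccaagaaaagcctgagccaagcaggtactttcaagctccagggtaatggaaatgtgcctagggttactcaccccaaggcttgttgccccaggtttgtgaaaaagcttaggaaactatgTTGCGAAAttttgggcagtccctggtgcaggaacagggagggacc
Saa1 promoter, chr7:46742981-46743230: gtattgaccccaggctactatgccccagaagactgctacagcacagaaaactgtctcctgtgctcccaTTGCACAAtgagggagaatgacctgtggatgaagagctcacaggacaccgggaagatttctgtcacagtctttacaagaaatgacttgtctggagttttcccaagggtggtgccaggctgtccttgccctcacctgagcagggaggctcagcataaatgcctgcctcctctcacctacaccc
Pzp promoter, chr6:128526721-128526970: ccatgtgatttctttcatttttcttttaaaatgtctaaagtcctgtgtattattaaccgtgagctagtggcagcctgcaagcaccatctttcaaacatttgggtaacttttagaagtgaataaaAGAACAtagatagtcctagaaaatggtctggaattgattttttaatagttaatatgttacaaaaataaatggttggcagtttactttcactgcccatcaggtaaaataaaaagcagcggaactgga
In C3 the capitals mark TTGCGAAA, 45 to 38 bases before the start, and in Saa1 they mark TTGCACAA, 182 to 175 bases before it. Both match TTGCNNAA, the letters searched on either strand for C/EBP factors, which mediate the response of acute phase genes to interleukins. That motif was in 3 of the 4 promoters, Saa3 included on the other strand at 99 to 92 bases before its start, and in 9.56% of 32851 mouse promoters of the same length. In Pzp the capitals mark AGAACA, 126 to 121 bases before the start, an arm of the palindrome bound by the androgen and glucocorticoid receptors. AGAACA was in 1 of the 4 promoters and in 16.1% of all. The STAT letters TTCNNNGAA were in 0 of 4 and in 7.02% of all promoters, and the NF-kB letters GGGNNTTCC were in 0 of 4 and in 4.98% of all. Each motif was searched on both strands, and the matches did not overlap each other. A match describes these letters only. The annotated Saa1 gene reaches upstream of the start used here, so its marked site lies within the gene, as the Saa3 stretch does. Positions hold for the start used only.

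Each gene is taken first by its level, as normalized log2 intensity of its probe in the 8 mice. Such levels compare mice for a gene, not one gene with another. Hp encodes haptoglobin, the plasma protein that binds free haemoglobin. Hp read 11.93 and 12.04 in the wild-type females, 11.07 and 9.74 in the mutant females, 10.86 and 12.25 in the wild-type males and 12.69 and 13.00 in the mutant males. Both mutant females were below both wild-type females, and both mutant males were above both wild-type males. The mean was 11.77 ± 0.62 in wild type and 11.62 ± 1.51 in the mutants (SD, n = 4 each), so the genotypes overlapped fully once the sexes were pooled. The range from the lowest to the highest mouse was 9.56-fold, the widest of these genes after Pzp.

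C3, the central component on which the complement routes meet, read 13.62 and 13.30 in the wild-type females and 11.60 and 12.08 in the wild-type males. Its mutant samples lay between these, at 12.90 and 12.60 in the females and 12.57 and 12.66 in the males. Over the 4 mutants the SD was 0.15 around a mean of 12.68, and over the 4 wild-type mice it was 0.96 around a mean of 12.65. Another C3 probe showed the same order, with 12.80 and 12.39 in wild-type females, 12.06 and 11.95 in mutant females, 11.25 and 11.40 in wild-type males and 11.91 and 12.08 in mutant males. On both probes the wild-type females lay above the wild-type males, while the mutant females and males overlapped.

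C4b encodes complement component 4, cut by the classical and lectin routes to build a C3 convertase. C4b read 10.76 and 10.70 in the wild-type females, 9.67 and 9.47 in the mutant females, 10.65 and 10.35 in the wild-type males and 10.91 and 10.58 in the mutant males. Both mutant females stood below the other 6 mice, the lowest of which was at 10.35. Mouse C4b has a near-identical neighbour, C4a, and whether the probe tells them apart was not tested.

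Cfb encodes factor B, the protease of the alternative route convertase. Cfb read 14.65 and 14.34 in the wild-type females, 14.42 and 14.49 in the mutant females, 14.93 and 14.58 in the wild-type males and 14.71 and 14.59 in the mutant males. The 2 groups overlapped in each sex, and the range over all 8 mice was 1.51-fold. Cfi encodes factor I, the protease that inactivates C3b and C4b. Cfi read 10.26 and 10.30 in the wild-type females, 9.97 and 10.30 in the mutant females, 9.44 and 9.57 in the wild-type males and 9.46 in both mutant males. All 4 females were above all 4 males, and the genotypes overlapped.

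Serping1 encodes the C1 inhibitor, which blocks the proteases of the first complement complex. Serping1 read 13.49 and 13.17 in the wild-type females, 12.55 and 13.09 in the mutant females, 12.50 and 13.06 in the wild-type males and 12.68 and 13.25 in the mutant males. Each mutant female was below both wild-type females, though on array 2 the log2 ratio was only -0.08, and the male genotypes overlapped. The other Serping1 probe gave 11.82 and 11.27 in the wild-type females and 10.80 and 11.35 in the mutant females, where the groups overlapped.

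Saa1 encodes serum amyloid A, an apolipoprotein that rises steeply in the acute phase. Saa1 lay between 8.32 and 8.63 in all 8 mice, with a mean of 8.47 ± 0.10 in wild type and 8.50 ± 0.11 in the mutants (SD, n = 4 each). Saa3, a serum amyloid A of fat cells and macrophages, had measured values of 6.20 to 6.93 and was well above background only in the first wild-type female, so no fold is given. The mouse Saa genes are alike in sequence, and whether the probes tell them apart was not tested.

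Pzp encodes pregnancy zone protein, an inhibitor of many proteases related to alpha-2-macroglobulin. Pzp read 7.30 and 10.00 in the wild-type females, 7.74 and 7.45 in the mutant females, 12.88 and 12.70 in the wild-type males and 12.38 and 12.26 in the mutant males. Every male exceeded every female, and both wild-type males exceeded both mutant males. The high female was wild-type replicate 2, the same mouse that stood apart in Alb, and its part in the Pzp values was not tested. Cross-reading of the related genes A2m and Mug1 was not tested either.

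**Figure D1:**
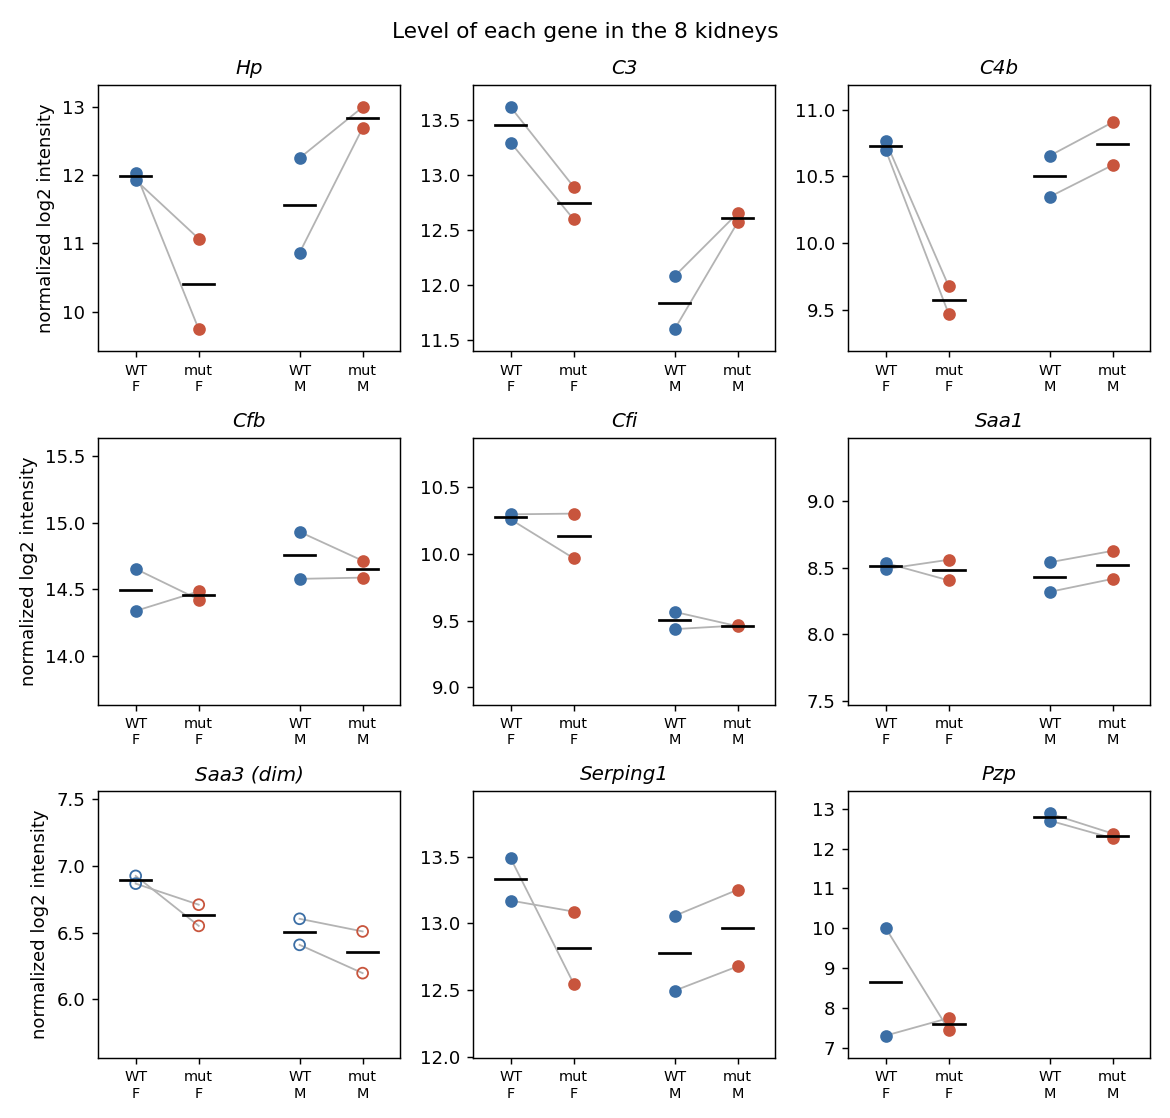
Normalized log2 intensity (vertical axes) of the 9 genes in the 8 kidneys, in wild type (WT, blue) and mutant (mut, red) females (F) and males (M); grey lines join the mice of an array, bars are means of 2 mice, and open circles mark Saa3, well above background in 1 of 8 samples. Hp is lower in mutant females and higher in mutant males than in wild type, and Pzp is at 12.26 or above in every male and at 10.00 or below in every female.

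The genotype comparison tested the log2 ratio of mutant over wild type over the 4 arrays, with a term for dye. None of the 8 genes changed at a limma adjusted p under 0.05, against 6 of 22122 items (0.0271%) in either direction, and none had an unadjusted p under 0.05, against 4.46% of items. The median of the 8 log2 ratios was -0.12, beside -0.0045 for all items. Pzp had the lowest p: its ratio was 0.44 and -2.56 in the female pairs and -0.50 and -0.45 in the male pairs, and the mean was -0.77 ± 0.34 (SE, n = 4 arrays, limma adjusted p = 0.98). Without replicate 2 the Pzp ratio was -0.24 ± 0.19 (limma adjusted p = 1). C4b had a mean ratio of -0.46 ± 0.30 (limma adjusted p = 0.98). Hp had -0.14 ± 0.59 and C3 had 0.03 ± 0.31, with arrays of opposite sign behind both means. The SE of Hp was well above the median SE of 0.081 over all items. For Cfb, at -0.07 ± 0.07, and Saa1, at 0.03 ± 0.08, the SE was close to that median.

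The sex by genotype comparison asked whether the ratio of mutant over wild type differed between the male and the female pairs. Of the 8 genes 1 passed, Hp. Its ratio was -0.86 and -2.30 in the female pairs and 1.83 and 0.75 in the male pairs. On average the mutants held 2.99-fold less Hp than wild type in females and 2.44-fold more in males. The difference of the log2 ratio was 2.87 ± 0.19 (SE, n = 4 arrays, limma adjusted p = 0.0104), rank 4 of 22122 items by p. In all 31 items (0.14%) passed with a higher ratio in the male pairs, and 0 passed with a lower one. Over all items that count was 0 with no dye term, with a background offset of 16, with Agilent's processed signals and with the deposited table, so every call in this comparison, Hp's included, was lost under those 4 settings, and it was 223 with median normalization. The SE does not hold the gap between the pairs of a sex, because the dye term takes up the gap that both sexes share. Without the dye term the Hp difference was 2.87 ± 0.55 with a limma adjusted p of 1, and leaving out replicate 2 as well, the replicate of the mouse that stood apart in Alb, gave 2.15 ± 0.46 (limma adjusted p = 0.999). With the offset of 16 the limma adjusted p was 0.0615.

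C3 had ratios of -0.73 and -0.70 in the female pairs and 0.97 and 0.57 in the male pairs. C3 was 1.64-fold lower in mutant females on average and 1.71-fold higher in mutant males. The difference, 1.48 ± 0.19, missed the threshold (limma adjusted p = 0.0852), and the other C3 probe gave 1.26 ± 0.18 (limma adjusted p = 0.123). C4b had ratios of -1.09 and -1.23 in the female pairs and 0.25 and 0.24 in the male pairs. In females C4b was 2.23-fold lower in the mutants, and in males 1.19-fold higher. Its difference of 1.40 ± 0.18 also missed the threshold (limma adjusted p = 0.0754). Serping1 had ratios of -0.94 and -0.08 in the female pairs and 0.18 and 0.20 in the male pairs, and a difference of 0.70 ± 0.24 (limma adjusted p = 1).

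These 4 genes, Hp, C3, C4b and Serping1, had a ratio below 0 on both female arrays and above 0 on both male arrays, 4 of 8 against 3.95% of all items. On the other probe of Serping1 the array 2 ratio was 0.08, above 0, so the count is 3 of 8 with that probe. The reverse pattern was seen in 0 of 8 and in 2.75% of items. The same 4 had an unadjusted p under 0.05 with a higher ratio in the male pairs, against 3% of items. The median difference over the 8 genes was 0.64, beside 0.0090 over all items. In the other 4 genes the difference was smaller than its SE. It was -0.06 ± 0.18 for Cfb, 0.10 ± 0.19 for Cfi and 0.12 ± 0.18 for Saa1. For Pzp it was 0.58 ± 0.62, and -0.91 ± 0.28 without replicate 2 and the dye term (limma adjusted p = 0.999).

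**Figure D2:**
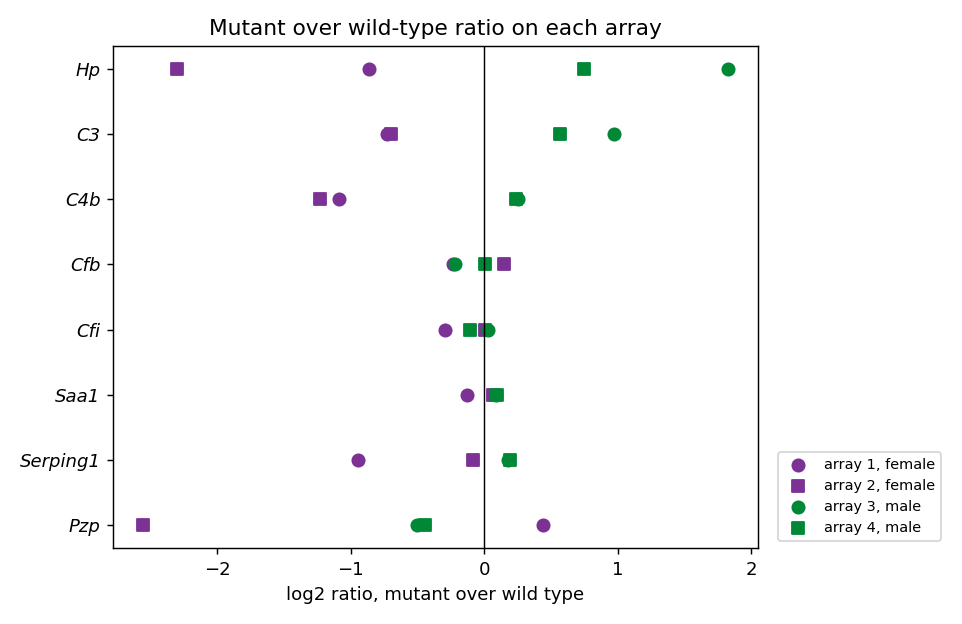
Log2 ratio of mutant over wild type (horizontal axis) of the 8 tested genes on each of the 4 arrays, with female pairs in purple and male pairs in green. Hp, C3, C4b and Serping1 lie left of 0 on both female arrays and right of 0 on both male arrays, while Cfb, Cfi and Saa1 stay between -0.29 and 0.15.

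**Figure D3:**
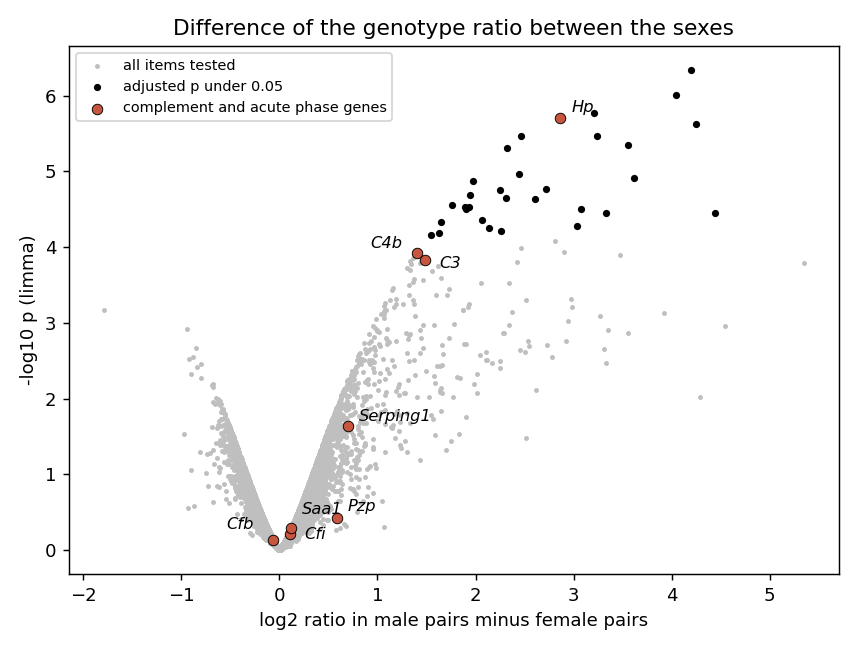
Difference of the log2 ratio between male and female pairs (horizontal axis) against -log10 of limma's p (vertical axis) for 22122 items in grey, with the 31 past an adjusted p of 0.05 in black and the 8 genes in red. Hp lies among the called items, C3 and C4b lie just short of them, and all the called items lie to the right of 0.

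Perirenal fat markers had the signs of these 4 genes on the 4 arrays. Of 11 fat markers measured, 9 had a ratio below 0 on both female arrays and above 0 on both male arrays, against 3.95% of all items. The sex by genotype test was passed by 7 with a higher ratio in the male pairs, against 0.14% of items. The median ratio of the 11 was -1.56, -1.77, 1.88 and 0.53 on arrays 1 to 4, beside -0.86, -2.30, 1.83 and 0.75 for Hp. The fat marker Plin1, which coats lipid droplets, differed by 3.04 ± 0.33 (limma adjusted p = 0.043). The calls of these 7 were lost under the 4 settings named above for Hp. Within each sex the summed fat marker intensity given above did not overlap between the genotypes, and the genotype with more of it had the higher mean level of Hp, C3, C4b and Serping1. The part of fat tissue in the results for these genes was not tested.

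Urothelium markers, of the lining of the renal pelvis, had median ratios of -1.79, -1.43, 1.53 and -0.06 on arrays 1 to 4, and 0 of 10 passed. Their summed intensity was 12479 and 16601 in the wild-type females, 5028 and 5248 in the mutant females, 4439 and 12177 in the wild-type males and 9177 and 12227 in the mutant males. Hepatocyte markers had medians of 0.25, -1.39, 0.17 and 0.24, with 0 of 6 past the test, and macrophage markers had medians of 0.05, 0.28, 0.32 and 0.08, with 0 of 6 past it. Summed hepatocyte marker intensity was 40851 and 55945 in the wild-type females, 32261 and 35686 in the mutant females, 160578 and 161556 in the wild-type males and 145697 and 147256 in the mutant males. That sum is weighted to its brightest members, and the members differed with sex in both directions. The male minus female log2 difference was 2.82 for Cyp2e1, 2.66 for Serpina1c and 0.46 for Ttr. It was -1.95 for Alb, -1.94 for Ahsg and -0.47 for Apoa2. Fibroblast markers had medians of -0.60, -0.10, 0.17 and 0.12, with the signs of the 4 genes, and 0 of 7 passed the test. Gene by gene, 2 of the 7 were below 0 on both female arrays and above 0 on both male arrays, against 3.95% of all items. Neutrophil markers had medians of 0.57, -0.08, 0.42 and 0.12, with 0 of 5 past the test. The part of these tissues in the results was not tested either.

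**Figure D4:**
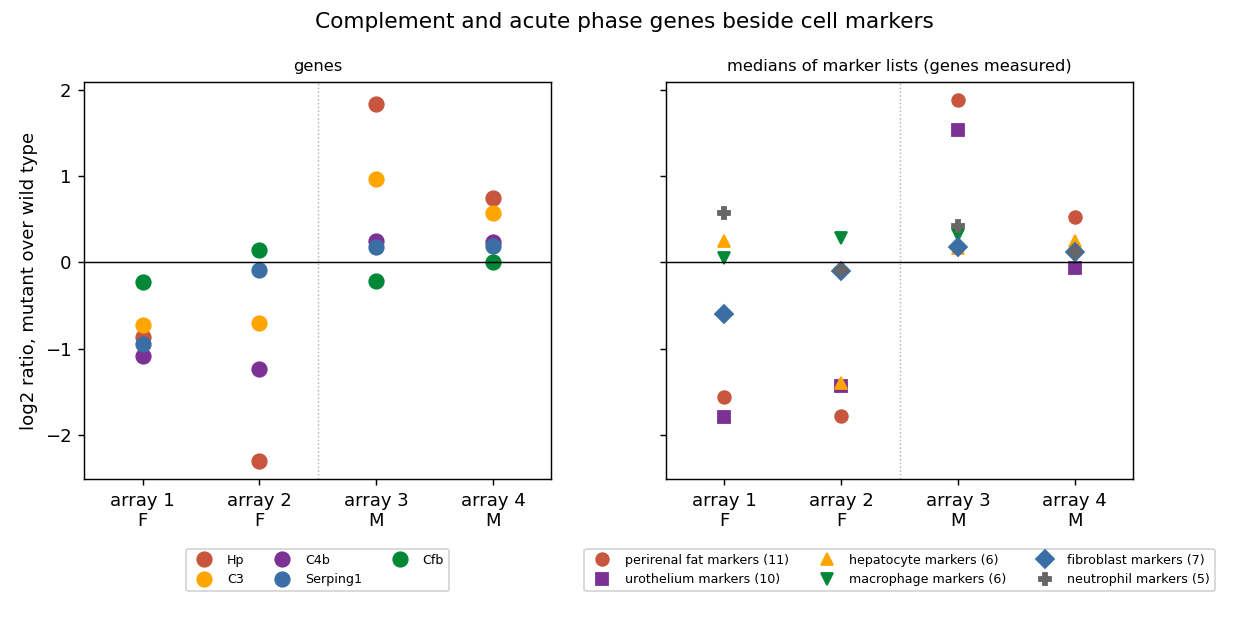
Log2 ratio of mutant over wild type (vertical axes) on arrays 1 and 2 (female pairs) and 3 and 4 (male pairs), for 5 of the genes on the left and for the median of 6 marker lists on the right, with the number of genes measured in brackets. The fat marker median goes from -1.56 and -1.77 in the female pairs to 1.88 and 0.53 in the male pairs, with the signs of Hp, C3, C4b and Serping1.

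The sex comparison tested males against females over the 8 mice, averaged over genotype. Of the 8 genes 5 changed at a limma adjusted p under 0.05, against 45.5% of all items. The 3 higher in males were Hp, C4b and Pzp, against 18.4% of items, and the 2 higher in females were C3 and Cfi, against 27.1%. In 2 of 8, Cfi and Pzp, the male and the female samples did not overlap, against 43% of items. The median male minus female difference was 0.10 over the 8 genes and -0.10 over all items.

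Pzp was higher in males by 4.43 ± 0.49 on the log2 scale, or 21.6-fold (SE, n = 8 samples, limma adjusted p = 0.00112). Without replicate 2, which held the high female, its difference was 5.03 ± 0.24 (limma adjusted p = 0.00085). Over the alternatives it ran from 3.83, without replicate 1, to 5.30, with processed signals, so the fold varied with the setting. The fits without a replicate also used a genotype term shared by the sexes, and the cause of this range was not tested. Cfi was lower in males by a log2 difference of -0.73 ± 0.10 (limma adjusted p = 0.00266). Both passed under each of 12 alternative settings. C3 differed by -0.87 ± 0.15 (limma adjusted p = 0.00451), from means of 13.46 in wild-type females and 11.84 in wild-type males but 12.75 and 12.62 in the mutants.

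Hp was higher in males by 1.01 ± 0.30 (limma adjusted p = 0.0342) and C4b by 0.47 ± 0.12 (limma adjusted p = 0.0203). The mean of Hp was 10.40 in mutant females and 12.84 in mutant males, and in wild type, where the sexes overlapped, it was 11.98 and 11.56. C4b was lower in females than in males among the mutants and higher among the wild-type mice, with means of 9.57 and 10.75 against 10.73 and 10.50. With the mean of each array in place of its 2 samples, which share a sex, Hp did not pass (limma adjusted p = 0.0641), nor did it with processed signals (limma adjusted p = 0.0755), while C4b and C3 passed under both. The calls of Hp, C4b and C3 were lost when any 1 replicate was left out. Those fits also used a genotype term shared by the sexes, in place of 1 for each sex. Whether the mice left out or the changed model lay behind these losses was not tested. With the correlation between the channels of a spot taken from the whole model, the genes past the threshold were C3, Cfi and Pzp. Under that setting 3836 of 22122 items passed. Cfb, at 0.23 ± 0.11, Saa1, at -0.02 ± 0.10, and Serping1, at -0.20 ± 0.20, did not pass (limma adjusted p = 0.124, 0.867 and 0.437).

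Among other complement and acute phase genes none passed the genotype test. In the sex by genotype test 1 passed, Cfd, which codes for factor D, the protease that cuts factor B, also called adipsin and made by fat cells. Cfd differed by 3.33 ± 0.34 (limma adjusted p = 0.0327), from -2.11 and -2.49 in the female pairs and 1.98 and 0.09 in the male pairs. Its call too was lost under the 4 settings named above for Hp. Cfp, properdin, which steadies the alternative route convertase, differed by 0.46 ± 0.18 (limma adjusted p = 1). Of the classical and lectin route, 0 of 11 passed, with a median difference of 0.17. C1qa, C1qb and C1qc, which code for the chains of C1q, had ratios below 0 on arrays 1 and 3 and above 0 on arrays 2 and 4, the arrays of opposite dye. In the terminal route 0 of 4 passed, among regulators 0 of 9 and among receptors 0 of 6. With sex, 7 of the 11 classical and lectin genes were higher in females and 1 in males, and of the 16 other acute phase genes 6 were higher in females and 3 in males, against 27.1% and 18.4% of all items.

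Of the other acute phase genes 16 were measured and 0 passed either test by genotype. Their ratio was higher in the male pairs on average in 16 of 16, against 52.2% of all items, with a median difference of 0.71, beside 0.0090 over all items. Their median ratio was -0.07, -0.52, 0.42 and 0.23 on arrays 1 to 4. These genes share the same arrays, so their signs are not independent of each other. A ratio below 0 on both female arrays and above 0 on both male arrays was seen in 4 of 16, against 3.95% of all items. Orm2, an orosomucoid, came nearest with ratios of -0.48, -0.48, 0.77 and 0.86 and a difference of 1.30 ± 0.17 (limma adjusted p = 0.092). It was dim, at 6.48 to 7.64, and well above background in only 4 of 8 samples, the least that the filter allowed. Lrg1, a leucine-rich glycoprotein, differed by 0.82 ± 0.17 (limma adjusted p = 0.386). Hpx, hemopexin, which binds free haem, was well above background in 5 of 8 samples and had ratios of 0.40, -2.93, 1.39 and 0.32. Its lowest ratio was on array 2, that of the mouse that stood apart in Alb. Itih3, Itih4, Serpina3m, Fgb, Fgg and Cp were also above 0 on array 1 and below 0 on array 2. Orm1, Orm2, Lcn2, Fga, Serpina1a and Lrg1 were below 0 on both, and Orm3, Cd14 and Lbp had the reverse signs. The part of that mouse in these ratios was not tested. For the signalling genes upstream, 0 of 12 passed, with a median difference of 0.01. Cebpb, a C/EBP factor, had ratios of -0.88, -0.81, 0.13 and 0.09 and differed by 0.96 ± 0.17 (limma adjusted p = 0.262), while Socs3, induced by interleukin-6, differed by -0.07 ± 0.18. Il6 and Tnf were on the arrays and not well above background in any sample.

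The genes most like each of the 8 were taken by Pearson correlation of normalized log2 intensity over the 8 mice, as a description over samples that share arrays in pairs. For Hp they were Kcnt1 (0.957), Nrg4 (0.942) and Ankrd13d (0.939), and Nrg4 had ratios of -0.68, -0.64, 0.54 and 0.31 on arrays 1 to 4. Those of C3 were Pole (0.965), Flnc (0.964) and Sit1 (0.957). C4b was followed by Dnase1l2 (0.942) and by Lrg1 (0.929) and Cfp (0.916), both on the lists above. Cfi and Pzp, which differed with sex throughout, had the closest likenesses, Pnkd (0.994) and Ppp4r2 (0.987). For Cfb, Saa1 and Serping1 the closest were Mcrip2 (0.980), A930018P22Rik (0.962) and Etv3 (0.975).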

How the data were processed

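RNA of 8 mouse kidneys was measured on 4 two-colour arrays of 62976 spots, 3671 of them controls, with 200 ng of RNA labelled per sample. Agilent Feature Extraction 10.7.3.1 produced the deposited intensity values, per the submitters' processing notes: median spot and background intensities, with processed signals and quality marks beside them. What else the authors did was not given in the sources used here. A deposited table of log2 values was tried as an alternative. Its direction and log2 scale were taken from its match to the scanner values, where log2 ratios of the same arrays correlated by 0.866 to 0.882 with a slope of 1.24 to 1.35. Its columns had medians of -0.022 to 0.018, each probe was centred on its median, and which background correction was used stays unknown.

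From the deposited intensities, normexp correction (offset 50) and loess were run in limma 3.58.1 (R 4.3.3, with version 1.17.8 of the data.table package), leaving out control spots and outlier marks. Channel levels were scaled with Aquantile. Median spot intensity was 97 to 105 in Cy3 and 220 to 245.5 in Cy5, the number of arrays limits the precision, and no probe of these genes was saturated. Probes were named by accession through RefSeq names of GRCm38.p6 (27509 probes of 20887 genes). The brightest probe with at least 4 of 8 channels well above background stood for a gene, which left 14284 items with a symbol and 7838 without.

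Genotype was tested with limma on 4 log2 ratios with a dye term (2 residual degrees of freedom, prior 3.97), and sex by genotype on the same ratios (1 residual, prior 5.65). Sex was tested with limma's separate-channel fit, at an intraspot correlation of 0.157 estimated with no sex by genotype term. P-values are 2-sided and adjusted by Benjamini-Hochberg over all items, with a threshold of 0.05. They rest on the spread between these mice, which the design text calls biological replicates, and on that of other items through limma's prior. In the sex by genotype fit, with 1 residual degree of freedom beside a prior of 5.65, limma gives other items more weight than the gene's own arrays. Samples were paired by their shared array. Their deviations from genotype means correlated by 0.695, 0.684, 0.680 and 0.782 within replicates 1 to 4, and since each pair is of 1 sex, sex differences alone raise these values. The genes, lists and tests were chosen with earlier results of these data known, so patterns in them are no independent support. Besides the 9 genes, the text names list members that passed a test, up to 4 of a list with the lowest p, and the 3 named genes most like each gene. Other genes of the lists, the C1q genes, Lrg1, Hpx, Socs3, Cfp, Plin1 and Alb among them where they fall outside that rule, were named after their values were seen. The fits were also run on simulated data, with normally distributed noise drawn from the fitted variances. That run cannot show how often the tests err on these arrays. Alternatives were the offset, processed signals, median normalization, the probe filter, every probe as its own item, the dye term, the replicate block, the deposited table, the correlation, array means and each replicate left out, with another probe of C3 and Serping1 added after seeing the data. Figures were drawn with matplotlib 3.10.9 and pandas 2.3.3 in Python 3.11.15.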

Additional observations from a re-analysis of the deposited data

Results flagged for a closer look

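Hp stood out because the difference between its mutant over wild-type ratio in male and in female pairs, 2.87 on the log2 scale, passed the test of that difference (limma adjusted p = 0.0104). C3, C4b and Serping1 stood out because both female pairs had a ratio below 0 and both male pairs a ratio above 0. Their differences were 1.48, 1.40 and 0.70, and the test of the difference gave limma adjusted p-values of 0.0852, 0.0754 and 1, above the threshold. On the other Serping1 probe the ratio on array 2 was 0.08, so the signs that singled Serping1 out were not shared by that probe. Pzp and Cfi stood out among the 4 females, each with 1 mouse far from the others: the gap to the nearest mouse was 0.837 of the range for Pzp, high in wild-type replicate 2, and 0.870 for Cfi, low in mutant replicate 1. Of 32 groups of 4 mice, by genotype or by sex, these 2 were past Dixon's limit, and chance puts about 1 in 20 groups past it.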

How the results depend on the processing

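In the genotype comparison 0 of these genes passed under each of 12 alternatives, with no replicate block included. In the sex by genotype comparison 1 gene, Hp, passed, and the count was 0 with the deposited table, 0 with no dye term, 0 with offset 16 and 0 with processed signals. It was 3, namely Hp, C3 and C4b, with median normalization, beside 223 of 22122 items, and with every probe as its own item, beside 54 of 28960. Leaving out each replicate in turn, with no dye term because 3 arrays cannot carry both terms, gave 0 to 1. The Hp difference kept its sign in 11 of 11 alternatives, from 2.15 to 3.59, and passed in 4. C3 ranged from 1.26 to 1.68 and C4b from 1.33 to 1.48. Over all items the count went from 31 to 0 under those same 4 settings and to 223 with median normalization. In the sex comparison 5 passed, beside 10065 of 22122 items, as 5 did with no replicate block, beside 10675 items. The count was 4 with array means and with processed signals (Hp lost in both), beside 9681 and 9784 items. It was 3 with the correlation from the whole model, beside 3836 items. With a replicate left out it was 2 to 3, beside 6189 to 8331 items. Those fits kept the correlation of all arrays, and the sexes shared the genotype term. Without replicate 4 Cfb, which had not passed, did (limma adjusted p = 0.0435). No value past the threshold changed sign, while 18 values short of it did under an alternative. The cause of these changes was not tested. Mean levels on other probes were not run as an alternative, since different probes share no scale. Few arrays limit precision: the median SE of the sex by genotype difference was 0.181, beside 0.081 for genotype.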
